A study of Mus musculus with 22 samples.

Results

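The miR-184 hairpin, written Mir184 for the mouse gene, yields 2 mature microRNAs (miRNAs), miR-184-5p from the arm at its 5′ end and miR-184-3p from the arm at its 3′ end. Its members were the 2 rows of the miRNA count table named mmu-miR-184-3p and mmu-miR-184-5p, of 1966 mature names in all. The hairpin was chosen by its measured values, namely its level, its spread among libraries, its arm ratio and its changes between genotypes and batches, so all values of its arms below are a description and no p-value is given for them.

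A miRNA is cut as a hairpin from a longer transcript and trimmed to a short duplex, of which an Argonaute protein keeps one strand as the guide and discards the other. The guide pairs with messenger RNAs mainly through its seed, bases 2 to 8 counted from its 5′ end, and lowers their translation or stability. miR-184 is best known from the cornea and the lens, and is also expressed in male germ cells.

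The libraries were made from small RNA of round spermatids (RS), the haploid cells that have completed meiosis and not yet elongated, isolated from testes of mice 75 to 85 days old. GRTH/DDX25, the gene altered in this study, is a testis RNA helicase of the DEAD-box family. WT mice carried the intact gene, KO mice lacked GRTH, and KI mice carried a mutated GRTH that is made but not phosphorylated. The labels place 5 WT and 5 KO libraries in one experimental batch and 6 WT and 6 KI libraries in another, called the KO batch and the KI batch here. Each mutant therefore had its own WT libraries, and KO and KI were never in the same batch. The mRNA of GRTH is not measured in a miRNA table, so the genotypes were not checked here. The labels do not say which animals the libraries of a group came from, so spread between them may be in part technical. RS from KO and KI mice come from testes in which spermatids stop before elongation, and fewer cells of a type in a preparation cannot be told apart from less of a miRNA in each cell.

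Total counts per library ran from 559957 to 3239357, with the KI batch the deeper. All 5 miRNAs of the meiotic and postmeiotic germ cell list were detected in RS. They summed to between 157879 and 415971 CPM (counts per 1000000 of the library) and were led by miR-34c-5p, the most abundant of them. The 7 X-linked testis miRNAs summed in the KO batch to between 31205 and 34870 CPM in WT and 23568 and 26035 in KO. In the KI batch they summed to between 28811 and 32988 CPM in WT and 23609 and 26601 in KI. Markers of other cells were present at lower levels. The 7 blood miRNAs summed to between 3010 and 6056 CPM and the 7 miRNAs of stroma and vessels to between 753 and 5082 CPM. In the KO batch, the list of stroma and vessels ran from 753 to 2017 CPM in WT and from 1872 to 3833 in KO. In the KI batch it ran from 1353 to 2417 CPM in WT and from 2348 to 5082 in KI. The part of this list and of the X-linked testis list in the KO and KI differences given below was not tested. Of the 5 muscle miRNAs, miR-133b-3p and miR-206-3p were at 0 in every library and the list summed to between 12.9 and 769 CPM.

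The sequences of the hairpin and of both arms are shown because the seed defines what each could pair with. The 2 members also differ at the 5′ end, which can influence which strand is kept. The part of that end in the arm ratio was not tested. The sequences were taken from RefSeq for GRCm38.p6, in which the hairpin has 69 bases. In the hairpin the capitals mark the arms, and in the mature miRNAs they mark the seed.
Mir184 hairpin: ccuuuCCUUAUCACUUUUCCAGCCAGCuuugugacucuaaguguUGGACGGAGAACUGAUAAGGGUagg
miR-184-3p: uGGACGGAgaacugauaagggu
miR-184-5p: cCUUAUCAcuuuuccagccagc

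Both mature forms have 22 bases and a GC content of 50.0%, but their bases are divided unequally. miR-184-3p holds 9 G and 4 U, whereas miR-184-5p holds 2 G and 7 U. The 3p arm begins with U and the 5p arm with C. In the fold of lowest free energy, -29.0 kcal/mol by RNAfold, 27 base pairs formed, of which 17 joined the arms and 1 of those was a G-U pair. Of the first 4 bases of miR-184-3p, 3 were paired in this fold, against 4 of 4 for miR-184-5p. No other of 1679 mature mouse miRNAs in RefSeq carried the seed of miR-184-3p, and none carried that of miR-184-5p. Aligned without gaps at any offset, no other of them matched more than 13 of the 22 bases of miR-184-3p or 14 of the 22 of miR-184-5p. By seed, each arm was therefore a family of its own.

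The count table lists 1 locus for each arm, on the minus strand of chromosome 9 of GRCm38 (mm10). miR-184-3p lies at chr9:89802263-89802284 and miR-184-5p at chr9:89802302-89802323. In the GENCODE vM21 annotation no other gene overlapped the hairpin on either strand, so it is neither exonic nor intronic of a host gene. The nearest gene was the lincRNA 1700017I07Rik, 541 bases away on the opposite strand. The nearest protein-coding genes were Ankrd34c, at 63.784 kb on the same strand, and Tmed3, at 97.191 kb on the same strand. Rasgrf1, an imprinted gene for a Ras exchange factor, lay 107.579 kb away on the opposite strand. No other miRNA in the table was near. The closest was miR-12205, at 1.476 Mb, whose 5p arm had 2 counts and whose 3p arm had 1 count over all libraries.

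miR-184-3p was an abundant miRNA of WT RS in the KO batch and varied little there. Levels are CPM scaled by TMM, a factor that sets the bulk of miRNAs equal between libraries, over all 22 libraries. In the 5 WT libraries of that batch, in replicate order, miR-184-3p measured 4046, 4439, 3692, 3717 and 3922 CPM. The mean was 3963 ± 304 (SD, n = 5), with a coefficient of variation of 7.67% and a highest value 1.20-fold above the lowest. It ranked between 29 and 35 by count in these libraries and took between 0.417% and 0.488% of all counts.

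In KO RS the level was lower in every library. The 5 KO libraries measured 642, 2206, 1831, 2978 and 2406 CPM, a mean of 2013 ± 871 (SD, n = 5). Replicate 1 was the lowest, 2.85-fold under the next library, while the other 4 lay between 1831 and 2978 CPM. The highest KO library was still under the lowest WT library at 3692 CPM, so the groups did not overlap. Its rank in the KO libraries lay between 37 and 97. Counting error was small against these gaps. miR-184-3p of KO replicate 1 rested on 578 counts, with a 95% Wilson interval of 687 to 809 CPM by library total, and that of replicate 3 on 1670 counts, with an interval of 2368 to 2606.

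In the KI batch the libraries of both genotypes fell into a low and a high range with nothing between them. The 6 WT libraries of this batch measured 1739, 2098, 418, 504, 548 and 2259 CPM, with a lowest value of 418, a median of 1143 and a highest value of 2259. The 6 KI libraries measured 441, 2407, 391, 1740, 638 and 550 CPM, with a lowest value of 391, a median of 594 and a highest value of 2407. Among WT, 3 libraries were low and 3 high, and the low and high ranges were 3.18-fold apart. Among KI, 4 libraries were low and 2 high, and the ranges were 2.73-fold apart. Over all 12 libraries, 7 lay between 391 and 638 CPM and 5 between 1739 and 2407 CPM, and each range held WT and KI libraries alike.

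The group means were 1261 ± 862 CPM (SD, n = 6) in WT and 1028 ± 841 CPM (SD, n = 6) in KI, with coefficients of variation of 68.4% and 81.8%. The counts behind these values were between 886 and 5562 per library, so the gap was far beyond counting error. For WT replicate 5, the highest of the low WT libraries, the Wilson interval was 431 to 477 CPM by library total, and for WT replicate 1, the lowest of the high ones, it was 1372 to 1470 CPM. The Wilson intervals cover counting error only.

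**Figure D1:**
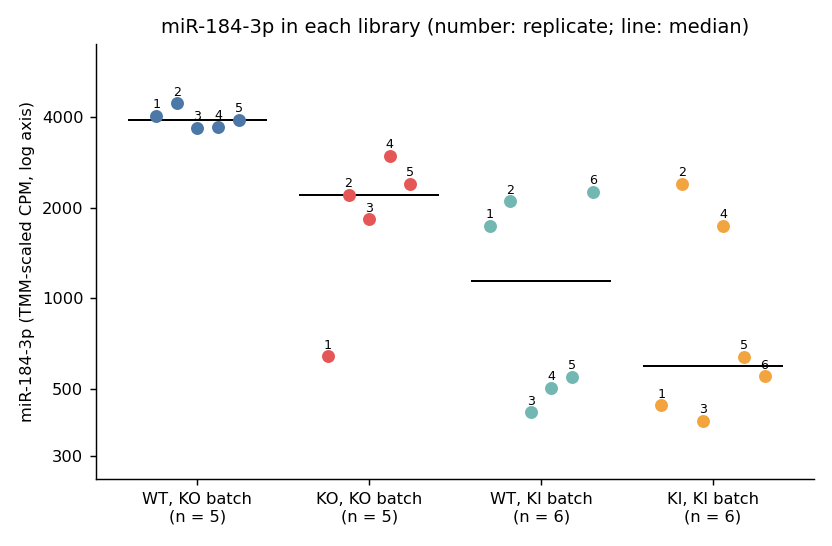
Level of miR-184-3p in each of the 22 libraries (TMM-scaled CPM, log axis), by genotype and batch. Each point is a library with its replicate number and the line is the group median. WT libraries of the KO batch sit between 3692 and 4439 CPM, above all KO libraries, and libraries of the KI batch lie either at 391 to 638 or at 1739 to 2407 CPM in both genotypes.

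Ordered by mean level, the groups ran from WT of the KO batch, through KO and WT of the KI batch, to KI. The first 2 did not overlap. KO at 642 to 2978 CPM and WT of the KI batch at 418 to 2259 CPM overlapped, as did WT and KI of the KI batch. Overlap alone does not show that neighbours were equal. KO and WT of the KI batch differ in both genotype and batch, and their difference was not fitted.

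The spread of miR-184-3p among replicates was among the largest of all miRNAs in 3 of the 4 groups. It was taken as the SD of log2(CPM + 1) and ranked, largest first, among the miRNAs that averaged 10 CPM or more in that group. In WT of the KO batch the SD of miR-184-3p was 0.11, rank 266 of 324, under the median SD of 0.22. In KO it was 0.87, rank 7 of 330, with a median of 0.26. Without KO replicate 1 it was 0.29, so the large KO spread rested on that library. The ranking is descriptive, since the spread was one of the values that led to the choice of this hairpin.

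In the KI batch its SD was 1.14 in WT, rank 3 of 314, and 1.09 in KI, rank 3 of 332. The median miRNA had an SD of 0.17 and 0.22 in these groups. Only miR-133a-3p and miR-1a-3p, which are muscle miRNAs, had a larger SD there, and both were less abundant. In WT of the KI batch, miR-133a-3p averaged 72.6 CPM with an SD of 1.77 and miR-1a-3p 431 CPM with an SD of 1.56.

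The miRNAs next to miR-184-3p in abundance were steady in the same libraries. In WT of the KI batch, miR-22-3p ran from 1168 to 1367 CPM with an SD of 0.09 and miR-30b-5p from 1041 to 1327 CPM with an SD of 0.13. The other 2 neighbours, miR-7229-5p and miR-7234-3p, had SDs of 0.14 and 0.24. In WT of the KO batch, where miR-184-3p was steady, its neighbours miR-29b-3p, miR-142a-3p, miR-466b-3p and miR-7217-5p had SDs of 0.09, 0.18, 0.09 and 0.12. The biological coefficient of variation that edgeR fitted for miR-184-3p was 0.325 in the KO against WT fit, 13th highest of 334 miRNAs, and 0.626 in the KI against WT fit, 3rd of 387.

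**Figure D2:**
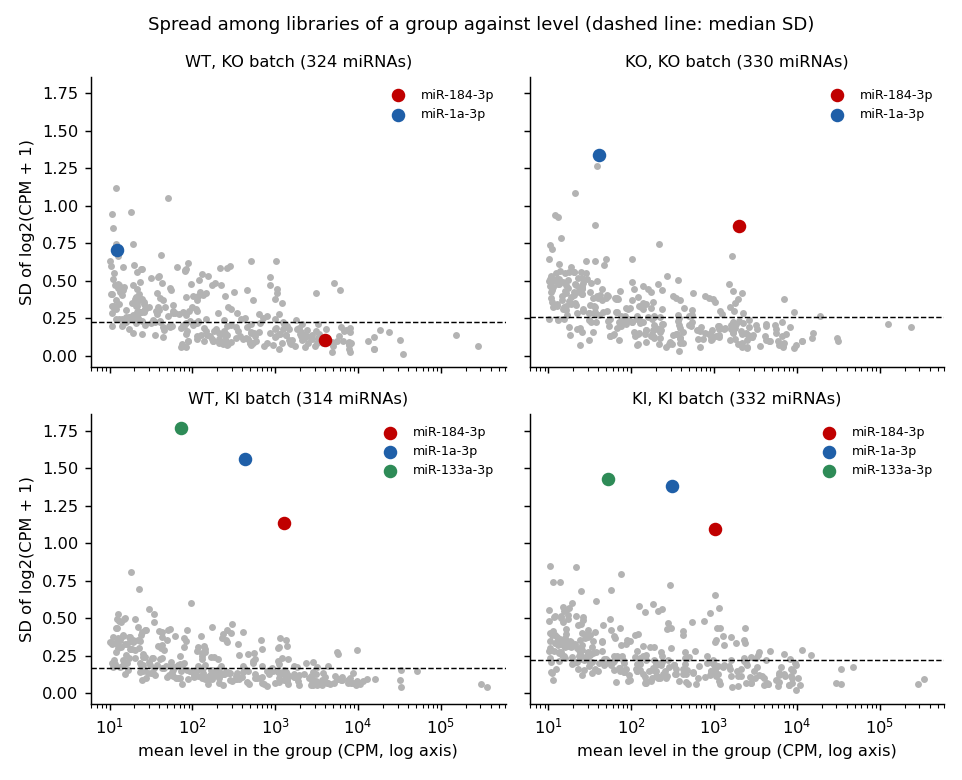
SD of log2(CPM + 1) among the libraries of a group (vertical axis) against mean level in that group (CPM, log axis), with 1 panel a group and 1 grey point for each miRNA that averaged 10 CPM or more. miR-184-3p lies at an SD of 0.11, under the dashed median, in WT of the KO batch. It lies at 0.87 to 1.14, far above miRNAs of like level, in the other 3 groups. In KO the SD is 0.29 without replicate 1. miR-1a-3p is above miR-184-3p in all 4.

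The muscle miRNAs moved with the spread of miR-184-3p in part. In the KO batch, KO replicate 1, the lowest in miR-184-3p, was the highest in miR-1a-3p at 121 CPM, and the other 4 KO libraries held between 8.10 and 28.5 CPM. In the KI batch, WT replicate 2 and KI replicate 2 were the lowest in miR-1a-3p, at 37.6 and 36.3 CPM, and both were in the high range of miR-184-3p. WT replicate 6 went the other way, with 2259 CPM of miR-184-3p and 542 CPM of miR-1a-3p, as did WT replicate 1 with 1739 and 659 CPM. The summed level of the muscle list ran from 12.9 to 38.1 CPM in WT of the KO batch, 22.9 to 147 in KO, 50.5 to 769 in WT of the KI batch and 50.5 to 567 in KI.

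As deviations from group means over the 22 libraries, miR-184-3p correlated with the log2 summed muscle list at r = -0.56, with r = -0.85 in the 10 libraries of the KO batch and r = -0.49 in the 12 of the KI batch. Without the 2 libraries farthest from the median, KO replicate 1 and KI replicate 2, r was -0.35. The list of stroma and vessels gave r = -0.45 over all libraries, -0.28 in the KO batch, -0.61 in the KI batch and -0.39 without the 2 farthest libraries. By Spearman's rho it stood at -0.57 and the muscle list at -0.42, so which list was the more opposed to miR-184-3p changed with the measure and the batch. The blood list gave r = -0.36 (-0.57 and -0.29 in the KO and KI batches, -0.07 without the 2 farthest), the germ cell list -0.31 (-0.50 and -0.29, -0.14) and the log2 library total -0.37 (-0.46 and -0.35, -0.33). All of these share library preparation and depth, and their part in the level of miR-184-3p was not tested. The list for surface epithelium, cornea, lens and retina, tissues rich in miR-184, gave r = -0.20, with 0.34 in the KO batch and -0.43 in the KI batch. It summed to between 894 and 1599 CPM. Of its 8 miRNAs, 6 averaged 10 CPM or more, with miR-203-3p at 354 CPM. The other 2 were scarce, with 87 counts of miR-205-5p and 10 of miR-211-5p over all libraries.

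No miRNA tracked miR-184-3p closely. Of 329 other miRNAs that averaged 10 CPM or more, the 5 with the highest r over the 22 libraries were miR-25-5p at 0.50, miR-7214-3p at 0.50, miR-7216-5p at 0.49, miR-7223-3p at 0.48 and miR-3068-3p at 0.46. Without the 2 farthest libraries these values were between 0.16 and 0.30 and none of the 5 remained among the top 5. The likeness was thus weaker without KO replicate 1 and KI replicate 2. With all libraries kept, the 5 gave r between 0.41 and 0.73 in each batch alone. No miRNA had r above 0.7 over all libraries, while 4 did in the KO batch alone and 1 in the KI batch alone. The lowest r over all libraries was -0.60, larger in size than the highest.

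In edgeR's quasi-likelihood fit the difference between KO and WT was -0.91 on the log2 scale (SE 0.29, 95% interval -1.55 to -0.28). That is 0.531 times the WT level, while the group means of CPM differed 1.97-fold. The fitted difference was among the calls at an adjusted p under 0.1, as were 41.9% of the 334 miRNAs tested, 20.7% in the lower direction. For miRNAs tested in that comparison, the groups did not overlap in 21.6%, and in 14.1% KO lay below WT, as for miR-184-3p. Its difference was the 23rd largest in size. With KO replicate 1 left out the difference was -0.69. Nothing is read from the call, since this contrast was one of those by which the hairpin was chosen.

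Between KI and WT the difference was -0.35 (SE 0.54, 95% interval -1.50 to 0.80) and was not called, whereas 38% of the 387 miRNAs tested were, 19.9% in the lower direction. The groups overlapped over most of their range, and 1 of 6 KI libraries was below the lowest WT library. The groups did not overlap for 14% of those tested, with KI the lower for 7.49%. The interval, from 0.354 to 1.75 times the WT level, includes the KO value of -0.91. With each library left out in turn, the value moved between -0.79 and -0.07, and the lowest and highest came without KI replicate 2 and WT replicate 6. Those libraries were the highest of their groups.

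The KO difference minus the KI difference was -0.55 (SE 0.69, 95% interval -1.97 to 0.88) in a fit of all 22 libraries and was not called. The call rate over the 421 miRNAs was 0% in this contrast, with 0 calls by edgeR, 0 by DESeq2 and 67 miRNAs at an unadjusted p under 0.05. A lower level in KO than in KI relative to WT was thus not detectable, and an equal change was not shown either.

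Of the 4 differences of miR-184-3p, the largest was between WT libraries of the 2 batches. WT RS of the KI batch differed from those of the KO batch by -1.73 (log2, SE 0.41, 95% interval -2.60 to -0.87) in the fit. That is 0.301 times the level in the KO batch, while the group means of CPM differed 3.14-fold. All 6 WT libraries of the KI batch were below the lowest WT library of the KO batch. In this contrast 56.7% of 383 miRNAs were called, 29.8% in the lower direction, and the groups did not overlap in 38.1%, in 17% with the KI batch the lower. The muscle list was higher in the KI batch, from 50.5 CPM upward, against at most 38.1 CPM in WT of the KO batch. The germ cell list was also higher, at 369360 to 415971 CPM in WT of the KI batch against 181674 to 228626 for the KO batch. Its members miR-34c-5p (284898 to 317843 against 127177 to 160469 CPM) and miR-34b-5p (44838 to 57168 against 19361 to 24991 CPM) were higher. Its other members, miR-34b-3p, miR-449a-5p and miR-449c-5p, overlapped between the batches. The X-linked testis list overlapped too, at 28811 to 32988 against 31205 to 34870 CPM. The part of these lists in the result was not tested. Batch here means the experimental batch of the labels, and libraries of the KI batch were also the deeper.

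**Figure D3:**
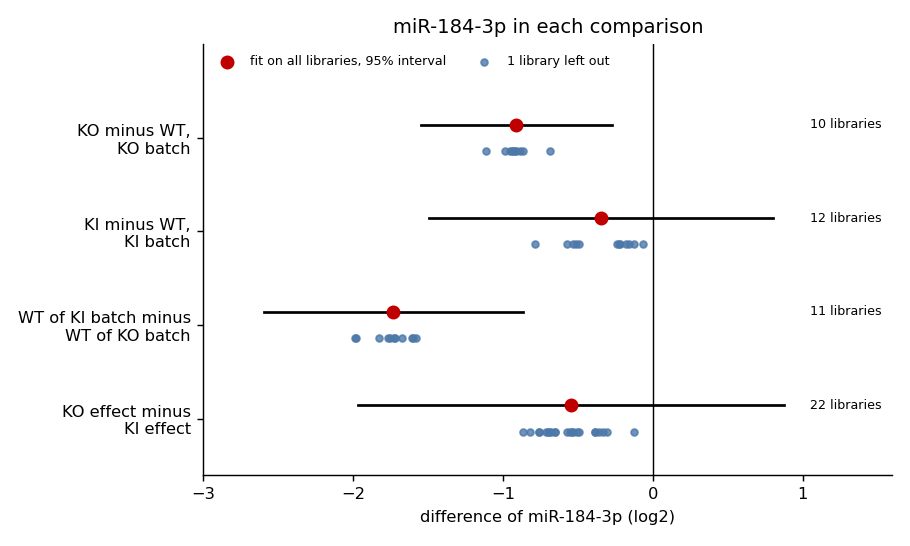
Difference of miR-184-3p on the log2 scale (horizontal axis) in the 4 comparisons, with the edgeR estimate and 95% interval (red point and line) and the estimates with each library left out in turn (blue points). The KO and batch differences of -0.91 and -1.73 stay below 0 with every library left out, while the intervals of the KI difference and of the difference between effects span 0.

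The other arm, miR-184-5p, was near absent. Over all libraries miR-184-3p had 60033 counts and miR-184-5p had 37, a ratio of 1623 to 1, so that 5p made up 0.0616% of the counts of the hairpin (95% Wilson interval 0.0447% to 0.0849%). Single libraries held between 0 and 4 counts of miR-184-5p. It was at 0 in 3 libraries and at 3 counts or fewer in 19 of 22, the number that a count of 0 allows. It passed the low-count filter in none of the 4 fits, so of the 2 members miR-184-3p alone was tested, and no fold change is given for miR-184-5p.

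The arm ratio was alike in groups whose miR-184-3p levels differed. Summed over libraries, 5p had 15 counts beside 21936 of 3p in WT of the KO batch and 5 beside 8853 in KO. In the KI batch it had 9 beside 15857 in WT and 8 beside 13387 in KI. As a share of the hairpin these were 0.0683% (Wilson interval 0.0414% to 0.113%), 0.0564% (0.0241% to 0.132%), 0.0567% (0.0298% to 0.108%) and 0.0597% (0.0303% to 0.118%), and every interval held the other 3 shares. With 0.5 added to each count, the mean log2 ratio of 3p over 5p was 10.31 ± 0.24 (SD, n = 5) in WT of the KO batch, 10.21 ± 1.36 (SD, n = 5) in KO, 10.35 ± 0.60 (SD, n = 6) in WT of the KI batch and 10.18 ± 1.01 (SD, n = 6) in KI. With so few 5p counts, differences in the ratio smaller than these intervals were not detectable.

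Among hairpins, miR-184 was one of the most one-sided. Of 261 hairpins with both arms in the table and at least 100 counts in all, 112 (42.9%) had more of the 3p arm. The log2 ratio of miR-184 was 10.64, 19th in size in either direction and 5th toward 3p, while the median size was 4.94. Of the 93 hairpins with at least 10000 counts, miR-184 was 12th in size, and the median minor arm held 1.79% of its hairpin's counts. Among all 261 hairpins, miR-203, of the surface epithelium list, was more one-sided than miR-184, with 14349 counts of 3p and 3 of 5p. So was miR-183, a miRNA of sensory cells, toward 5p, with 6592 of 5p and 1 of 3p.

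The sequences above start with U in the abundant arm and C in the other. Of 195 of these hairpins with both sequences in RefSeq, the more abundant arm began with U in 111 (56.9%), as miR-184-3p does, and the less abundant arm in 57 (29.2%). The less abundant arm began with C, as miR-184-5p does, in 50 (25.6%).

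**Figure D4:**
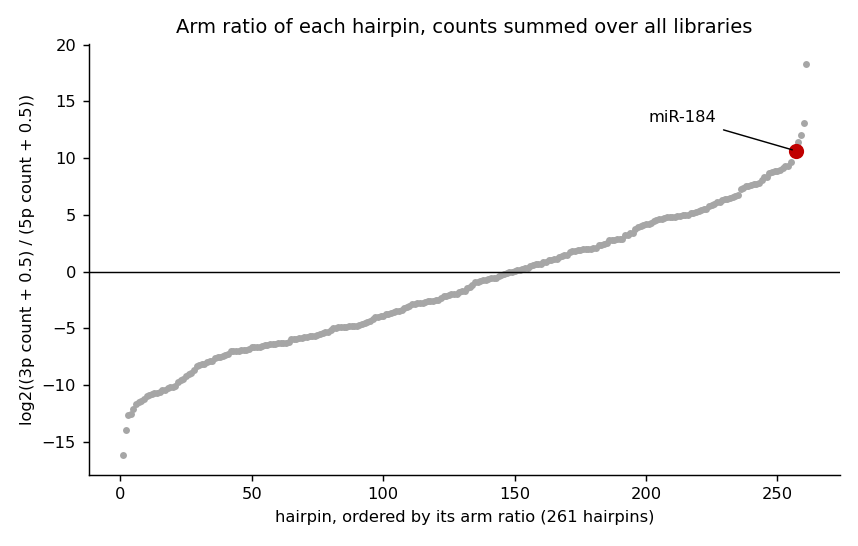
Log2 ratio of 3p over 5p counts (vertical axis, 0.5 added to each count) for 261 hairpins in order of the ratio, with counts summed over the 22 libraries. Each grey point is a hairpin, and miR-184, in red at 10.64, is the 5th from the right end, where 3p exceeds 5p most.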

How the data were processed

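Reads had been trimmed with cutadapt (3.4), aligned to GRCm38 (mm10) with Bowtie2 (2.4.2) and counted per mature miRNA with featureCounts of Subread (2.0.1), per the labels and file header. The deposited values were whole-number counts in 1 table of 22 libraries, and all of its sample columns were used. Groups and batches came from the labels. Counts were fitted in edgeR (4.0.16; TMM, filterByExpr, quasi-likelihood test, calls at a Benjamini-Hochberg adjusted p under 0.1) within each batch, between the WT groups and over all 4 groups, after a test on simulated counts. DESeq2 (1.42.0), library-size scaling, no low-count filter, a robust fit, the replicate number as a block and each library left out were alternatives. CPM was scaled by TMM over all libraries and logged with a pseudocount of 1. A count of 0 allows up to 3 counts. No pair of replicates agreed within sampling noise. Hairpins were folded with RNAfold (2.7.2).

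The members, marker lists and tests were chosen with earlier results of these data known. Named miRNAs were both arms, the 5 with the highest correlation to miR-184-3p, markers of at least 10 CPM, miRNAs sharing a seed, and the 2 on each side of miR-184-3p in mean WT level of each batch. miR-12205, miR-183 3p, miR-203 5p and markers under 10 CPM were named after their values were seen. The experimental batches differed in depth and in composition. The median log2 difference of all miRNAs between WT groups was -0.34 with scaling by library total and -0.01 with TMM.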

Additional observations from a re-analysis of the deposited data

How the results depend on the processing

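The miR-184-3p difference kept its direction under all 15 alternatives for KO (-1.11 to -0.69) and all 17 for KI (-0.79 to -0.07). It also did so under all 16 between WT groups (-2.34 to -1.58) and all 27 for the KO minus KI difference (-0.86 to -0.12). Its side of the threshold stayed the same as well. Nothing is read from that, since the refits use the contrasts by which the hairpin was chosen. Leaving out 1 library gave -1.11 to -0.69, -0.79 to -0.07, -1.99 to -1.58 and -0.86 to -0.12, and 112 to 153, 127 to 173, 203 to 218 and 0 to 26 calls. The 26 calls came without KI replicate 2 and 1 call without replicate 1 of WT in the KI batch. Scaling by library size changed the split of calls from 71 higher and 69 lower to 101 and 44 for KO, from 70 and 77 to 96 and 53 for KI, and from 103 and 114 to 47 and 193 between WT groups, with miR-184-3p at -0.79, -0.23 and -2.08. It raised the mean of miR-184-3p in WT of the KO batch to 4489 CPM.

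Same-numbered libraries deviated together with correlations of -0.20 to 0.30 for KO, -0.12 to 0.56 for KI and -0.02 to 0.21 between WT groups. In the KI batch the values for replicates 1 to 6 were 0.07, 0.56, 0.39, -0.12, 0.01 and 0.27. The labels do not say whether same-numbered libraries of a batch were prepared together, and this was not tested. With the replicate block, miR-184-3p was at -1.06, -0.34, -2.34 and -0.72 in the 4 comparisons, and the KO minus KI contrast had 25 calls. The SE of the KI difference of miR-184-3p was 0.37 in that fit, against 0.54 in the main fit.

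The SD of miR-184-3p ranged with 1 library left out from 0.063 to 0.125 in WT of the KO batch, 0.29 to 0.999 in KO, where 0.29 came without replicate 1, 1.07 to 1.19 in WT of the KI batch and 0.85 to 1.21 in KI. Of the 5 miRNAs most like miR-184-3p, 2 remained with CPM by library total, 3 by Spearman correlation, 1 in each batch alone, and 0 without the 2 farthest libraries, an alternative chosen after seeing the data. Depth limits miR-184-5p alone, at 0 to 4 counts a library.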
